A study of Mus musculus with 15 samples.

Results

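Dermal adipocyte genes are 34 genes that mark fat cells or carry out their lipid storage and lipolysis, chosen by gene symbol from a table of 18929 mouse genes. All 34 symbols were found. Of these, 33 passed the filter on low counts and entered the test, as did 15369 genes in all, and Ucp1, which encodes the uncoupling protein of brown and beige fat, did not.

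The white fat of the dermis lies under the reticular dermis and around the hair follicles, and in mice it expands and shrinks with the hair cycle. Its adipocytes hold triglyceride in a single large droplet coated by perilipin and CIDE proteins, take up fatty acids that lipoprotein lipase releases from circulating lipoproteins, and give them back through a cascade of lipases. PPARG and C/EBPA drive the differentiation of these cells, and adiponectin, leptin, resistin and adipsin are their best known secreted proteins.

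Expression was measured by bulk RNA sequencing in 15 samples of dorsal skin from male wild-type balb/c mice, 3 in each of 5 groups. The mice were 4 to 6 weeks old when a rounded full-thickness wound of 10 mm or 15 mm was cut. Each size of wound was filled either with Matrigel beads without cells (acellular) or with Matrigel beads carrying human umbilical cord mesenchymal stem cells at high density, printed sparsely among beads without cells (HDB), and normal skin was not wounded. The methods give 4 weeks of implantation before skin was taken for sequencing and, elsewhere, state that the wounds were followed to day 21, so the age of the healed skin is uncertain. The transplanted cells are human and the counts refer to mouse genes, and whether human transcripts added to them was not tested. The labels do not say that replicates came from separate animals, so the p-values measure only the spread between these samples. In bulk skin, fewer adipocytes and less RNA per adipocyte cannot be told apart.

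The 250 bases before the start are shown for 3 members, Lep (Entrez 16846), Cidec (Entrez 14311) and Plin1 (Entrez 103968), because they were among the members furthest below normal skin in acellular 10 mm wounds and because the windows hold the letters TTGCNNAA, a form of the site bound by C/EBP factors. The windows lie upstream of the gene on mouse build GRCm38.p6, at chr6:29059971-29060220 on the plus strand for Lep, chr6:113434765-113435014 on the minus strand for Cidec and chr7:79732777-79733026 on the minus strand for Plin1. They come from RefSeq, are written 5′ to 3′ along the gene, and carry each match in capitals.
Lep: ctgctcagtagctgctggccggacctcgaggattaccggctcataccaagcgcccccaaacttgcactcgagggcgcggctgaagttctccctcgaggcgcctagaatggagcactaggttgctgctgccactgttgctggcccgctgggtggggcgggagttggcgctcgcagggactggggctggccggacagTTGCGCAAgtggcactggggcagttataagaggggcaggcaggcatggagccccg
Cidec: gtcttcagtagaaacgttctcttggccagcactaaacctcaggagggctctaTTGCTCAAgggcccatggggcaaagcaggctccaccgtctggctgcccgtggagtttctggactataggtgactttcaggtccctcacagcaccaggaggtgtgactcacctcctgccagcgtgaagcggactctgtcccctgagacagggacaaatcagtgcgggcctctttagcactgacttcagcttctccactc
Plin1: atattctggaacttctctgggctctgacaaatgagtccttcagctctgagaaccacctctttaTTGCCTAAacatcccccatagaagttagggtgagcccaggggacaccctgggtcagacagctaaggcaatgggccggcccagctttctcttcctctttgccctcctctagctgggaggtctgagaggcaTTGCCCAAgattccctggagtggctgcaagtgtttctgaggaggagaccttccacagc

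Promoter windows were at hand for 22 member genes, 28 windows in all. The letters TTGCNNAA, read on both strands (TTNNGCAA on the other), occurred in windows of 4 members, Lep, Cidec, Plin1 and Pparg, and in 9.56% of the 32851 windows of all genes. The PPAR and RXR direct repeat, the site bound by PPARG with its partner, occurred in 0 member windows and in 0.338% of all windows. TATAAA was found in windows of Cebpa and Pparg and in 12.4% of all windows. A match describes letters only and is no evidence of binding.

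In normal skin the label of the list was met by its defining genes. The summed level of 6 adipocyte markers that are also members (Adipoq, Plin1, Cidec, Lep, Retn and Cfd) was 1488, 4391 and 2520 CPM (counts scaled to library size, normalized by TMM) in the normal samples, and none of the 6 was at 0 in any sample. Per kilobase of the longest transcript, the highest mean level in normal skin was that of Car3, carbonic anhydrase 3, at 4466 CPM per kb. Cfd (adipsin) followed at 1680, Fabp4 (the fatty acid carrier of adipocytes) at 445, Lpl at 345 and Adipoq at 323 CPM per kb, and the lowest tested member was Pde3b at 8.70 CPM per kb. Ucp1 had 0, 1 and 0 counts in normal skin, 2, 2 and 2 in acellular 10 mm, 0, 3 and 2 in acellular 15 mm, 2, 3 and 1 in HDB 10 mm, and 3, 6 and 5 in HDB 15 mm. A count of 0 allows up to 3 counts, which is 0.211 and 0.201 CPM in normal replicates 1 and 3 and 0.170 CPM in acellular 15 mm replicate 1. The samples of HDB 15 mm stood at 0.171, 0.364 and 0.282 CPM, so replicate 1 was under the limits of normal replicates 1 and 3, and every acellular 10 mm sample was as well. The gene was too low to enter the fit and no difference in it was tested.

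Total counts lay between 15840542 and 18404177 per sample. Several samples stood apart over the adipocyte genes. Acellular 15 mm replicate 3 was the highest of its group in 31 of 33 members (31.6% of all genes), and normal replicate 2 was the highest of its group in 31 (34.1% of all genes). HDB 15 mm replicate 3 was the lowest of its group in 32 members (36.6% of all genes), acellular 15 mm replicate 1 in 28 (40.9%) and HDB 10 mm replicate 2 in 27 (38.7%). The mean log2 CPM over the 33 members was 5.48, 5.87 and 5.45 in acellular 10 mm, 6.73, 5.81 and 6.53 in HDB 10 mm, 5.97, 6.51 and 7.50 in acellular 15 mm, 7.26, 7.68 and 5.83 in HDB 15 mm, and 7.20, 8.13 and 7.26 in normal skin. Thus the 3 normal samples differed among themselves by more than the acellular 10 mm samples did, and each 15 mm group ranged from near the acellular 10 mm samples to within the normal samples.

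**Figure D1:**
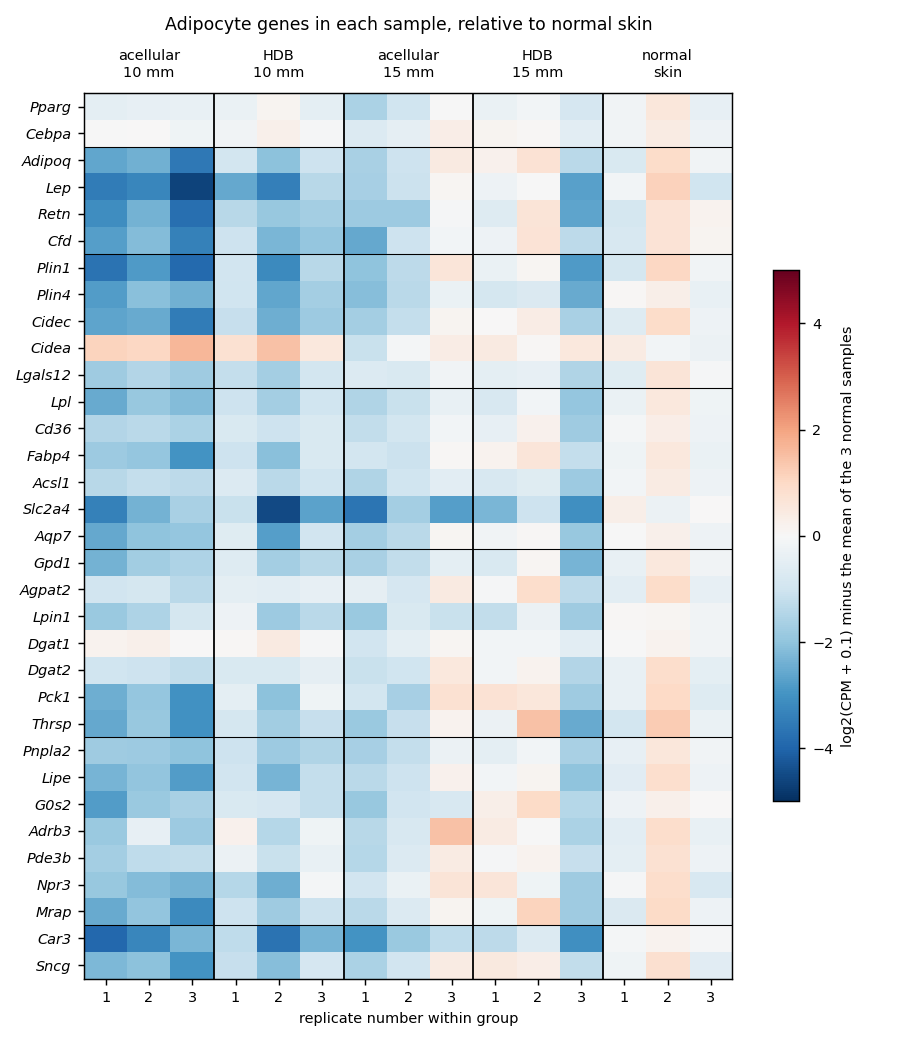
Level of the 33 tested adipocyte genes (rows, grouped by role) in each of the 15 samples (columns, 3 per group), as log2(CPM + 0.1) minus the mean of the 3 normal samples. Most genes are blue in all acellular 10 mm samples, Cidea is red there, and within the 15 mm groups single samples (acellular replicate 3, HDB replicate 3) differ from the others across nearly the whole list.

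The comparison of acellular 10 mm wounds with normal skin asked how the genes stood in skin that had healed without added cells. The members' mean log2 CPM was lowest in this group, and 25 of 33 members fell and 1, Cidea, rose (edgeR's quasi-likelihood test, p-values adjusted over all genes by the Benjamini-Hochberg method, threshold 0.05), against 10.6% of all tested genes called lower and 9.77% called higher, 20.3% in all. The median log2 fold change of the members was -2.22 and that of all tested genes 0.03. In 28 members every acellular 10 mm sample was below every normal sample, as in 27.2% of all genes, and in 1 member, Cidea, every one was above (29.1% of all genes). The count of called members was 6 without acellular 10 mm replicate 1, 17 without replicate 2, 10 without replicate 3, 7 without normal replicate 2 and 15 without normal replicate 3. For this and the later edgeR fits that left out a single sample, the share of all genes called is not given. Their counts describe the members only and do not show a change particular to them. The call of 5 members, Lep, Cidec, Lgals12, Lpl and Pnpla2, held in every alternative run for single genes (DESeq2, the groups alone, the block, the length trend and each sample left out).

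**Figure D2:**
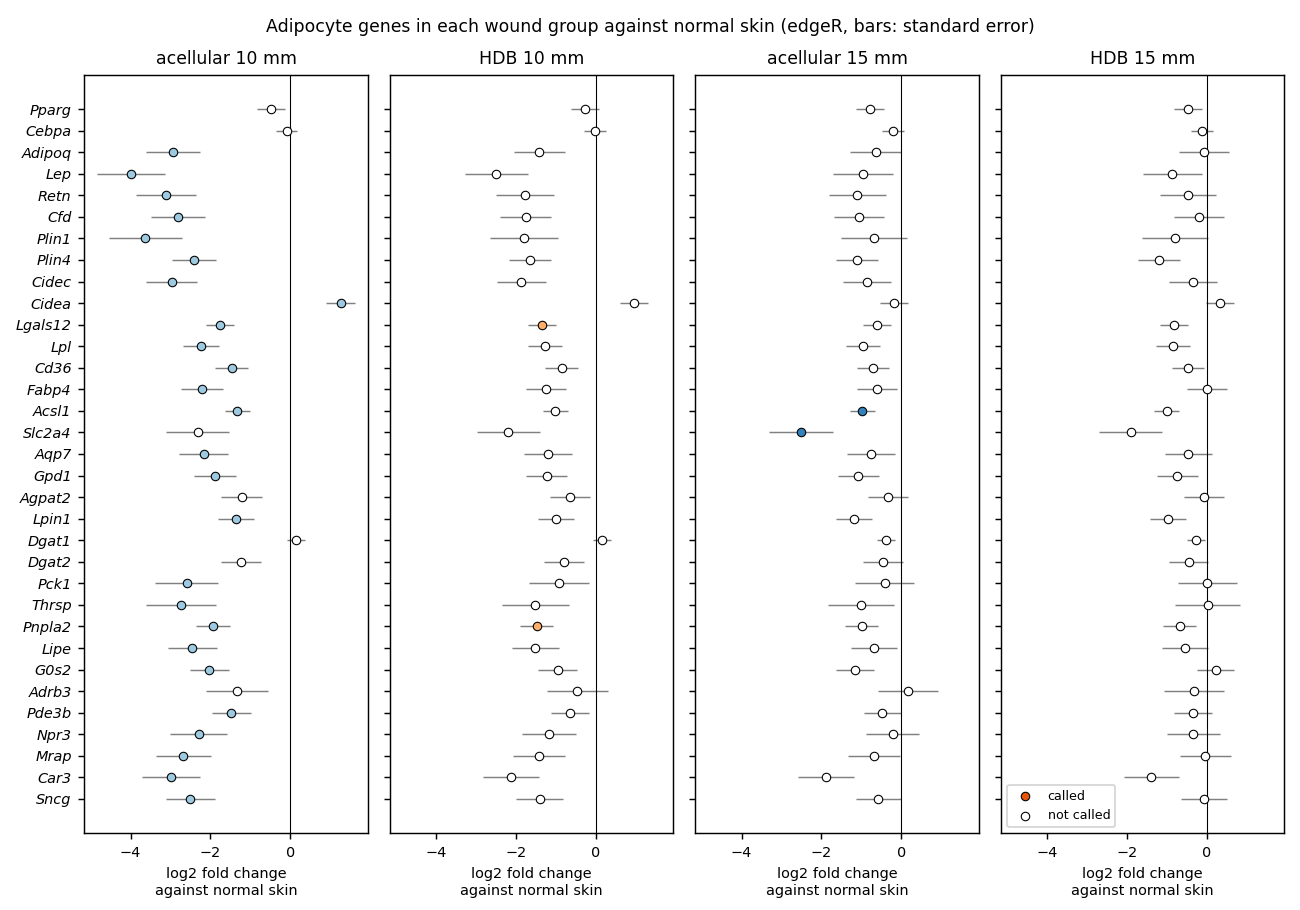
Log2 fold change of the 33 adipocyte genes (rows) against normal skin in each wound group (panels), with the standard error as a bar. Filled points passed the edgeR test at an adjusted p under 0.05. The filled points number 26 in acellular 10 mm, 2 each in HDB 10 mm and acellular 15 mm and 0 in HDB 15 mm, and all 4 panels share the normal samples.

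Over the mean of the 4 wound groups, 16 of 33 members were lower than in normal skin and 0 higher, against 16.7% and 14.2% of all tested genes. The members' median log2 fold change was -1.14, and -0.74 without normal replicate 2. In the same comparison 10 of 10 endothelial markers were called lower (median -1.44) and 6 of 10 macrophage markers (median -1.26), while of 8 epidermal markers 4 were called higher and 1 lower (median 0.59). The epidermal sum was 12832 to 18476 CPM in acellular 10 mm, where 3 of 8 were called higher, and 7557 to 8753 CPM in normal skin. None of these markers was at 0 in any sample, and their part in the members' values was not tested. In 4 members, Acsl1, Slc2a4, Lpin1 and Car3, all 12 wound samples were below all 3 normal samples, which held for 11.1% of all genes, and in 0 members were they all above (9.86% of all genes). Called members numbered 3 without normal replicate 2, 8 without normal replicate 3 and 25 without acellular 15 mm replicate 3. The values by role follow, each with the samples in the order of their replicate numbers.

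Neither of the 2 transcription factors passed the edgeR test in any comparison on all samples. Cebpa, which keeps mature adipocytes differentiated and is also expressed in sebaceous glands and epidermis, stood at 230, 239 and 202 CPM in acellular 10 mm, 206, 280 and 222 in HDB 10 mm, 147, 173 and 298 in acellular 15 mm, 254, 244 and 163 in HDB 15 mm, and 207, 311 and 198 in normal skin. Pparg, the nuclear receptor that starts adipocyte differentiation and that sebocytes also use, was at 55.1, 58.9 and 60.5 CPM in acellular 10 mm, 61.7, 85.7 and 55.8 in HDB 10 mm, 26.3, 39.1 and 76.1 in acellular 15 mm, 61.4, 70.8 and 43.3 in HDB 15 mm, and 69.3, 117 and 58.6 in normal skin. The groups overlapped for both genes. The lowest to the highest sample differed 2.11-fold for Cebpa, the least of all members, and 4.45-fold for Pparg. In acellular 10 mm the log2 fold change was -0.10 ± 0.27 (SE; edgeR adjusted p = 0.812) for Cebpa and -0.49 ± 0.35 for Pparg (edgeR adjusted p = 0.324). Without normal replicate 2 that of Cebpa was 0.13. Pparg was called over all wounds without acellular 15 mm replicate 3 (-0.64).

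Among the secreted proteins, all 4 fell in acellular 10 mm and 3 of 4 over the mean of the wounds. Cfd, the complement protease adipsin, stood at 208, 313 and 137 CPM in acellular 10 mm, 701, 295 and 376 in HDB 10 mm, 240, 698 and 1291 in acellular 15 mm, 1204, 2252 and 576 in HDB 15 mm, and 808, 2297 and 1541 in normal skin. Adiponectin (Adipoq), the hormone that raises insulin sensitivity, was at 60.8, 70.8 and 31.3 CPM in acellular 10 mm, 197, 90.2 and 180 in HDB 10 mm, 119, 179 and 502 in acellular 15 mm, 435, 608 and 147 in HDB 15 mm, and 219, 703 and 330 in normal skin. For both genes the acellular 10 mm samples lay below all normal samples, while the samples of each 15 mm group overlapped with normal skin. Adipoq fell by 2.94 ± 0.68 on the log2 scale in acellular 10 mm (edgeR adjusted p = 0.0143), and its log2 fold change over all wounds, -1.27 ± 0.46, missed the threshold (edgeR adjusted p = 0.0516) but passed without acellular 15 mm replicate 3 (-1.48) or HDB 15 mm replicate 2 (-1.38). Cfd fell by 2.82 ± 0.67 in acellular 10 mm (edgeR adjusted p = 0.0162) and by 1.46 ± 0.45 over all wounds (edgeR adjusted p = 0.0299). The acellular 10 mm calls were lost without acellular 10 mm replicate 1 or normal replicate 2 for both genes (-2.35 for Adipoq without the latter), and for Cfd also without acellular 10 mm replicate 3. Over all wounds the Cfd call was lost without normal replicate 2 (-1.06) or 3.

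Leptin (Lep), the satiety hormone whose secretion follows the size of the fat store, and resistin (Retn) were named after their values were seen. Lep showed the largest fall of all members in acellular 10 mm, with 6.17, 7.24 and 2.81 CPM against 64.1, 158 and 35.4 CPM in normal skin. It stood at 12, 6.62 and 27.2 CPM in HDB 10 mm, 22.6, 33.7 and 75.5 in acellular 15 mm, and 59.7, 71.1 and 10.9 in HDB 15 mm. The lowest and highest of the 15 samples were 56.5-fold apart, the widest span of any member. Its log2 fold change was -3.99 ± 0.85 in acellular 10 mm (edgeR adjusted p = 0.0113), and that of Retn -3.11 ± 0.76 (edgeR adjusted p = 0.0175). The Retn call was lost without acellular 10 mm replicate 1 or 3 or normal replicate 2 or 3. Over all wounds the calls of Lep and Retn were lost without normal replicate 2 (-1.29 and -1.24), and that of Retn also without normal replicate 3.

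Of the 5 lipid droplet genes, 4 fell and 1 rose in acellular 10 mm. Plin4, a perilipin of nascent droplets, stood at 81.7, 135 and 108 CPM in acellular 10 mm, 284, 93.6 and 175 in HDB 10 mm, 129, 221 and 449 in acellular 15 mm, 311, 347 and 98.8 in HDB 15 mm, and 596, 692 and 444 in normal skin. Cidec, which fuses small droplets into large ones, was at 61.9, 67.1 and 33.8 CPM in acellular 10 mm, 172, 69.4 and 108 in HDB 10 mm, 118, 166 and 415 in acellular 15 mm, 383, 493 and 124 in HDB 15 mm, and 241, 713 and 322 in normal skin. The 10 mm samples of both treatments lay below normal skin for both genes. Plin1, the perilipin that guards the droplet from lipases, was at 10.6, 19.2 and 9.18 CPM in acellular 10 mm and 75.4, 285 and 124 in normal skin. Log2 fold changes in acellular 10 mm were -2.42 ± 0.55 for Plin4 (edgeR adjusted p = 0.0142), -2.97 ± 0.64 for Cidec (edgeR adjusted p = 0.0120) and -3.63 ± 0.91 for Plin1 (edgeR adjusted p = 0.0191). Lgals12, a galectin of the droplet surface, fell by 1.77 ± 0.35 there (edgeR adjusted p = 0.00937) and by 1.34 ± 0.35 in HDB 10 mm (edgeR adjusted p = 0.0317). In acellular 10 mm the call was lost for Plin4 without replicate 1 of that group (-2.25) and for Plin1 without its replicate 1 or 3 or normal replicate 2 (-2.95). Over all wounds, where the 4 were also called, each call was lost without normal replicate 2, that of Cidec also without normal replicate 3, and that of Plin1 in 9 of the 15 fits that left out a single sample.

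Cidea, the CIDE protein of brown fat droplets that sebaceous glands also express, went the other way. It stood at 285, 277 and 417 CPM in acellular 10 mm, 226, 373 and 192 in HDB 10 mm, 61.4, 123 and 173 in acellular 15 mm, 182, 140 and 194 in HDB 15 mm, and 177, 122 and 110 in normal skin. All samples of both 10 mm groups were above all normal samples, and the 15 mm groups overlapped with them. Cidea rose by 1.26 ± 0.36 on the log2 scale in acellular 10 mm (edgeR adjusted p = 0.0292), with a log2 fold change of 0.95 ± 0.35 in HDB 10 mm (edgeR adjusted p = 0.0920). The call in acellular 10 mm was lost without replicate 1 or 3 of that group or normal replicate 2 or 3, with values of 1.35, 1.04, 1.17 and 1.12. Sebaceous gland markers moved with it. Their sum over 8 genes was 3961 to 4540 CPM in acellular 10 mm, 3154 to 5550 in HDB 10 mm, 1349 to 3032 in acellular 15 mm, 2270 to 2422 in HDB 15 mm and 2024 to 2862 in normal skin, and 4 of 8 were called higher in each 10 mm group with 0 lower. None of the 8 was at 0 in any sample, and their part in the Cidea result was not tested.

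**Figure D3:**
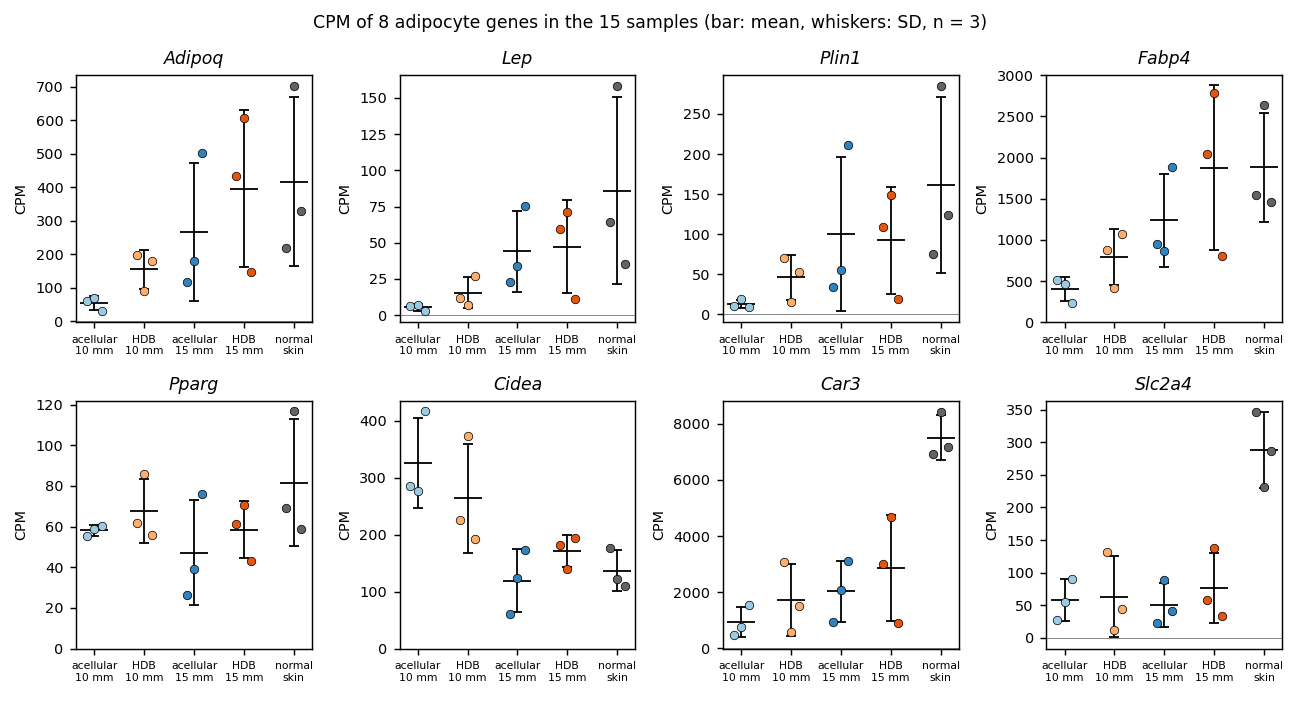
CPM of 8 adipocyte genes in all 15 samples, with each group's mean as a bar and the SD as whiskers (n = 3). Adipoq, Lep, Plin1 and Fabp4 have their lowest group means in acellular 10 mm, Pparg overlaps between all groups, Cidea has its highest means in the 10 mm groups, and Car3 and Slc2a4 are higher in each normal sample than in any wound sample.

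All 6 genes of fatty acid uptake and of glucose and glycerol transport had a log2 fold change below 0 in acellular 10 mm, and 5 of them fell. Fabp4 stood at 510, 468 and 231 CPM in acellular 10 mm, 883, 422 and 1072 in HDB 10 mm, 956, 870 and 1886 in acellular 15 mm, 2042, 2785 and 803 in HDB 15 mm, and 1543, 2642 and 1458 in normal skin. Lipoprotein lipase (Lpl) was at 237, 363 and 303 CPM in acellular 10 mm, 666, 417 and 677 in HDB 10 mm, 483, 624 and 1069 in acellular 15 mm, 788, 1232 and 361 in HDB 15 mm, and 1087, 1986 and 1182 in normal skin. Aqp7, the glycerol channel, was at 3.71, 5.50 and 5.85 CPM in acellular 10 mm, 14.7, 3.28 and 11.4 in HDB 10 mm, 6.80, 8.87 and 24.3 in acellular 15 mm, 19.7, 23.6 and 6.04 in HDB 15 mm, and 22.3, 26.6 and 19.1 in normal skin. The acellular 10 mm and HDB 10 mm samples of all 3 genes were below normal skin. Lpl fell by 2.24 ± 0.44 on the log2 scale in acellular 10 mm (edgeR adjusted p = 0.00918), Fabp4 fell by 2.22 ± 0.52 (edgeR adjusted p = 0.0157) and Aqp7 fell by 2.17 ± 0.62 (edgeR adjusted p = 0.0302). Over all wounds Lpl fell by 1.33 ± 0.31 (edgeR adjusted p = 0.00892), while Fabp4 and Aqp7 did not pass in edgeR unless 1 sample was left out (acellular 15 mm replicate 3 for both, HDB 15 mm replicate 2 for Fabp4 and HDB 10 mm replicate 1 for Aqp7). Cd36, the fatty acid receptor, fell by 1.47 ± 0.41 in acellular 10 mm (edgeR adjusted p = 0.0275). Over all wounds it was also called (-0.88), but that call was lost in 11 of the 15 fits that left out a single sample. The acellular 10 mm calls of Cd36 and Aqp7 were lost without any one sample of either group, that of Fabp4 without acellular 10 mm replicate 3 or normal replicate 2 (-1.91), and the Lpl call over all wounds without normal replicate 2 (-1.01). Endothelial cells also express Cd36 and Fabp4, and the sum of 10 endothelial markers was 133 to 264 CPM in acellular 10 mm and 701 to 796 in normal skin. All 10 were called lower in that comparison with none at 0. Of 10 macrophage markers 6 were called lower there and 9 had a log2 fold change below 0, with a median of -1.75, a sum of 209 to 1088 CPM against 566 to 1341 in normal skin, and none at 0. The part of both lists in these results was not tested.

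Acsl1, which activates fatty acids for synthesis, and Slc2a4, the insulin-responsive glucose transporter that skeletal muscle shares with fat, were the members called in acellular 15 mm. Acsl1 stood at 128, 184 and 251 CPM there and 333, 478 and 303 in normal skin, a log2 fold change of -0.98 ± 0.31 (edgeR adjusted p = 0.0344). Slc2a4 was at 26.9, 54.9 and 91.0 CPM in acellular 10 mm, 132, 12.2 and 44.7 in HDB 10 mm, 22.3, 88.2 and 41.7 in acellular 15 mm, 58.2, 138 and 34.2 in HDB 15 mm, and 346, 231 and 287 in normal skin. Every wound sample was below every normal sample. The log2 fold change of Slc2a4 was -2.50 ± 0.80 in acellular 15 mm (edgeR adjusted p = 0.0346), -2.32 ± 0.80 in acellular 10 mm (edgeR adjusted p = 0.0558) and -2.23 ± 0.53 over all wounds (edgeR adjusted p = 0.00994). In acellular 15 mm both calls were lost without acellular 15 mm replicate 1 or any one normal sample, that of Acsl1 also without acellular 15 mm replicate 2 and that of Slc2a4 without its replicate 3. In acellular 10 mm Acsl1 fell by 1.33 ± 0.32 (edgeR adjusted p = 0.0162), a call lost without acellular 10 mm replicate 1 or normal replicate 2, and Slc2a4 was called without acellular 15 mm replicate 1, HDB 10 mm replicate 1 or HDB 10 mm replicate 2.

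Of the 7 triglyceride synthesis genes, 4 fell in acellular 10 mm and 2 over all wounds. Gpd1, which makes the glycerol backbone, stood at 80.4, 126 and 143 CPM in acellular 10 mm, 264, 130 and 161 in HDB 10 mm, 137, 178 and 299 in acellular 15 mm, 243, 452 and 83.9 in HDB 15 mm, and 325, 603 and 370 in normal skin. Dgat2, which adds the last acyl chain, was at 121, 117 and 103 CPM in acellular 10 mm, 143, 144 and 176 in HDB 10 mm, 112, 123 and 347 in acellular 15 mm, 222, 275 and 86.6 in HDB 15 mm, and 185, 448 and 171 in normal skin. Lpin1, the phosphatidate phosphatase, was at 28.3, 36.0 and 56.6 CPM in acellular 10 mm, 86.5, 29.4 and 40.7 in HDB 10 mm, 28.3, 60.5 and 48.0 in acellular 15 mm, 44.6, 84.3 and 30.1 in HDB 15 mm, and 109, 112 and 91.4 in normal skin. Agpat2, which makes phosphatidate, was at 37.3, 39.4 and 28.5 CPM in acellular 10 mm and 51.1, 139 and 55.6 in normal skin. For Lpin1 all 12 wound samples were below normal skin, and for Dgat2 the 15 mm groups overlapped with it. Gpd1 fell by 1.89 ± 0.53 in acellular 10 mm (edgeR adjusted p = 0.0275) and Lpin1 by 1.37 ± 0.45 (edgeR adjusted p = 0.0498). Dgat2 had a log2 fold change of -1.24 ± 0.50 (edgeR adjusted p = 0.0935), and its partner enzyme Dgat1, which many tissues use, one of 0.15 ± 0.23 (edgeR adjusted p = 0.649). That of Agpat2 was -1.22 ± 0.51 (edgeR adjusted p = 0.0995), with all acellular 10 mm samples below normal skin. Without acellular 15 mm replicate 3 Dgat2 was called in acellular 10 mm (-1.24) and over all wounds (-0.92). Thrsp, an acidic protein of lipogenic cells, fell by 2.74 ± 0.88 (edgeR adjusted p = 0.0449) and Pck1, the enzyme of glyceroneogenesis, fell by 2.59 ± 0.78 (edgeR adjusted p = 0.0367). None of these 4 calls held throughout the 15 fits that left out a single sample: Lpin1 and Thrsp were each lost in 10, Pck1 in 6 (any one sample of either group) and Gpd1 in 5 (any one acellular 10 mm sample or normal replicate 2 or 3). Log2 fold changes in these fits reached -1.17 for Lpin1, -1.84 for Thrsp, -1.93 for Pck1 and -1.59 for Gpd1. Over all wounds Gpd1 was lost without normal replicate 2 or 3 and Lpin1 without any one normal sample.

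Of the 7 genes of lipolysis and its control, 6 fell in acellular 10 mm and 2 over all wounds. Pnpla2, the triglyceride lipase that starts lipolysis, stood at 107, 106 and 91.1 CPM in acellular 10 mm, 182, 104 and 129 in HDB 10 mm, 118, 163 and 301 in acellular 15 mm, 263, 341 and 120 in HDB 15 mm, and 278, 554 and 330 in normal skin. Hormone-sensitive lipase (Lipe) was at 37.8, 48.8 and 27.1 CPM in acellular 10 mm, 98.3, 37.8 and 81.9 in HDB 10 mm, 74.5, 93.5 and 220 in acellular 15 mm, 173, 206 and 47.1 in HDB 15 mm, and 129, 337 and 157 in normal skin. Both 10 mm groups lay below normal skin for both lipases. Pnpla2 fell by 1.93 ± 0.42 in acellular 10 mm (edgeR adjusted p = 0.0123) and it fell by 1.48 ± 0.42 in HDB 10 mm (edgeR adjusted p = 0.0391). Lipe fell by 2.45 ± 0.61 in acellular 10 mm (edgeR adjusted p = 0.0184) and by 1.30 ± 0.42 over all wounds (edgeR adjusted p = 0.0348). The lipase inhibitor G0s2, the natriuretic peptide clearance receptor Npr3, the melanocortin receptor partner Mrap and the phosphodiesterase Pde3b also fell in acellular 10 mm, with log2 fold changes from -1.48 (Pde3b) to -2.68 (Mrap). Adrb3, the beta-3 adrenergic receptor, was at 11.2, 30.8 and 11.4 CPM there and 28.5, 74.7 and 31.6 in normal skin, and did not pass (log2 fold change -1.34 ± 0.77, edgeR adjusted p = 0.218). Of 15 fits that left out a single sample, the acellular 10 mm call was lost in 11 for Pde3b, 6 for Npr3 (any one sample of either group), and 3 each for Lipe, Mrap and G0s2. Those 3 were acellular 10 mm replicate 1, normal replicate 2 and, for Lipe and Mrap, acellular 10 mm replicate 3 or, for G0s2, normal replicate 3. Over all wounds the Lipe call was lost without acellular 10 mm replicate 1 or 3 or normal replicate 2 (-0.76) or 3, and the Pnpla2 call without normal replicate 2 (-0.93).

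The remaining markers fell in acellular 10 mm. Car3, an enzyme abundant in adipocytes and slow muscle fibres, stood at 495, 781 and 1543 CPM in acellular 10 mm, 3090, 577 and 1504 in HDB 10 mm, 932, 2084 and 3100 in acellular 15 mm, 3009, 4692 and 897 in HDB 15 mm, and 6907, 8414 and 7172 in normal skin. Sncg, gamma-synuclein, was at 12.3, 14.3 and 7.31 CPM in acellular 10 mm, 26.5, 13.3 and 32.7 in HDB 10 mm, 19.6, 30.5 and 79.1 in acellular 15 mm, 82.7, 75.0 and 25.0 in HDB 15 mm, and 51.4, 102 and 39.4 in normal skin. Every wound sample was below normal skin for Car3, whereas both 15 mm groups overlapped with it for Sncg. Car3 fell by 3.00 ± 0.73 in acellular 10 mm (edgeR adjusted p = 0.0172) and by 2.10 ± 0.48 over all wounds (edgeR adjusted p = 0.00815). Sncg fell by 2.50 ± 0.61 in acellular 10 mm (edgeR adjusted p = 0.0172). In acellular 10 mm the Car3 call was lost without replicate 1 or 2 of that group, and the Sncg call without its replicate 1 or 3 or normal replicate 2 (-2.02). Skeletal muscle markers were also lower in the wounds. The sum of 10 genes was 53674 to 60032 CPM in normal skin, 5454 to 30781 in acellular 10 mm, 891 to 40729 in HDB 10 mm, 718 to 21639 in acellular 15 mm and 10314 to 31057 in HDB 15 mm. None of the 10 was called or at 0, and all 10 had a log2 fold change below 0 over all wounds. Within acellular 10 mm, HDB 10 mm and HDB 15 mm, the samples of Car3, Slc2a4 and Lpin1 ranked as their muscle sums did. In normal skin, where the muscle sums were 60032, 53674 and 55461 CPM, those of Slc2a4 did, those of Car3 ranked in the reverse order and those of Lpin1 in neither. In acellular 15 mm the muscle sums were 3312, 21639 and 718 CPM, and replicate 3, the lowest of all 15 samples in muscle, was the highest of its group in Car3 and the middle one in Slc2a4 and Lpin1. In HDB 10 mm the sum of the 6 adipocyte markers, at 1209, 516 and 790 CPM, also ranked as the muscle sums did. That was so in HDB 15 mm as well (2286, 3804 and 900 CPM), but not in the other groups. The part of muscle in the results of Car3, Slc2a4 and Lpin1 was not tested.

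**Figure D4:**
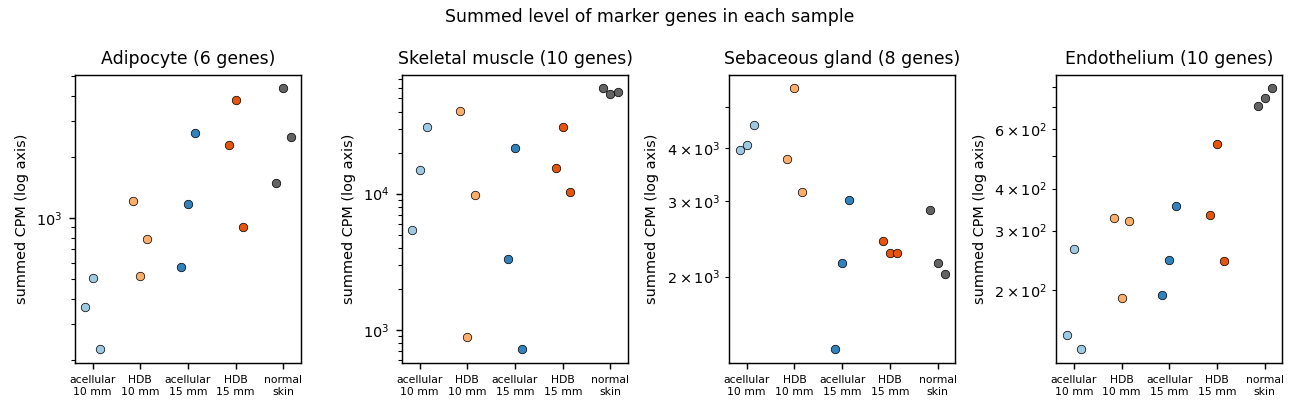
Summed CPM, on a log axis, of marker genes of 4 cell types in each sample, in the same group order. The 6 adipocyte markers are all members and are lowest in acellular 10 mm (225 to 506 CPM). Muscle and endothelial sums are higher in each normal sample than in any wound sample, and sebaceous sums are highest in the 10 mm groups.

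In the other wound groups few members passed. HDB 10 mm held 2 members lower, Lgals12 and Pnpla2, and 0 higher, against 6.23% of all genes lower and 6.10% higher. Its median log2 fold change over the members was -1.25 (-1.46 to -0.91 as single samples were left out), and in 22 members all HDB 10 mm samples were below normal skin, as in 23.4% of all genes. DESeq2 called 13 members there, against 11.2% of all genes lower and 9.78% higher in DESeq2, and a fit of these groups alone called 11, against 9.53% lower and 10.6% higher in that fit. The count was 0 without HDB 10 mm replicate 2 or 3 or normal replicate 2 or 3, 1 without normal replicate 1, HDB 15 mm replicate 1 or any acellular 10 mm sample, 7 without HDB 10 mm replicate 1 or acellular 15 mm replicate 3, 6 without HDB 15 mm replicate 3 and 10 without acellular 15 mm replicate 1. Of 10 endothelial markers 8 were called lower in HDB 10 mm (median -1.34). Of 10 macrophage markers 4 were called lower and 4 had a log2 fold change above 0 (median -1.18). Their part was not tested.

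Acellular 15 mm held 2 members lower, Acsl1 and Slc2a4, and 0 higher, against 12.6% of all genes lower and 17.6% higher (30.2% in all), and the median of the members was -0.71. DESeq2 called 6 members there, all lower, against 16.4% of all genes lower and 19.9% higher, and edgeR with the replicate number as a blocking term called 0 members, against 1686 genes lower and 2201 higher of 15369. In a fit of these groups alone 1 member was called, against 3.66% of all genes lower and 2.91% higher. Of the endothelial markers 10 of 10 were called lower in this comparison and of the macrophage markers 5 of 10, and their part was not tested. The members' median was -0.27 without normal replicate 2 and -1.36 without acellular 15 mm replicate 3. In 7 members its samples were all below normal skin, as in 21.5% of all genes. Leaving out acellular 15 mm replicate 1 or any one of the 3 normal samples gave 0, leaving out replicates 2 and 3 of acellular 15 mm gave 1 and 7 respectively, and the count was 4 without HDB 10 mm replicate 1, HDB 10 mm replicate 2 or HDB 15 mm replicate 3. HDB 15 mm held 0 called members in edgeR, against 2.51% of all genes called lower and 2.67% called higher (5.18% in all). At an unadjusted p under 0.05 there were 5 members, against 13.1% of all genes lower and 13.7% higher, and DESeq2 called 1 (Acsl1), against 7.90% lower and 7.04% higher. The median was -0.46, and it was -0.0084 without normal replicate 2 and -0.82 without HDB 15 mm replicate 2. The edgeR count was 1 without acellular 15 mm replicate 1 or HDB 15 mm replicate 2. In 5 members all HDB 15 mm samples were below normal skin, as in 22.6% of all genes. These 4 comparisons share the normal samples and are given side by side.

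The comparison of HDB with acellular beads asked whether the stem cell beads were followed by other levels of these genes. At 10 mm the levels in HDB samples were mostly higher, but no member was called: edgeR called 0 of 33 and 0% of all genes, 4 members had an unadjusted p under 0.05 (1.43% of all genes lower and 2.10% higher), and DESeq2 called 0 members (0.0586% and 0.0213% of all genes). The members' median log2 fold change was 0.88 (0.62 to 1.18 as single samples were left out), and 32 of 33 were above 0. That of all tested genes was -0.0083. In 11 members (Adipoq, Retn, Cidec, Lpl, Cd36, Agpat2, Dgat2, Thrsp, G0s2, Pde3b and Mrap) all 3 HDB samples were above all 3 acellular samples, against 4.53% of all genes, and in 0 members were they all below, against 6.47%. Within this size an exact permutation test cannot go below p = 0.1. Adipoq had a log2 fold change of 1.52 ± 0.64, Plin1 of 1.83 ± 0.85 and Pck1 of 1.67 ± 0.76 (edgeR adjusted p = 1.00 for each).

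**Figure D5:**
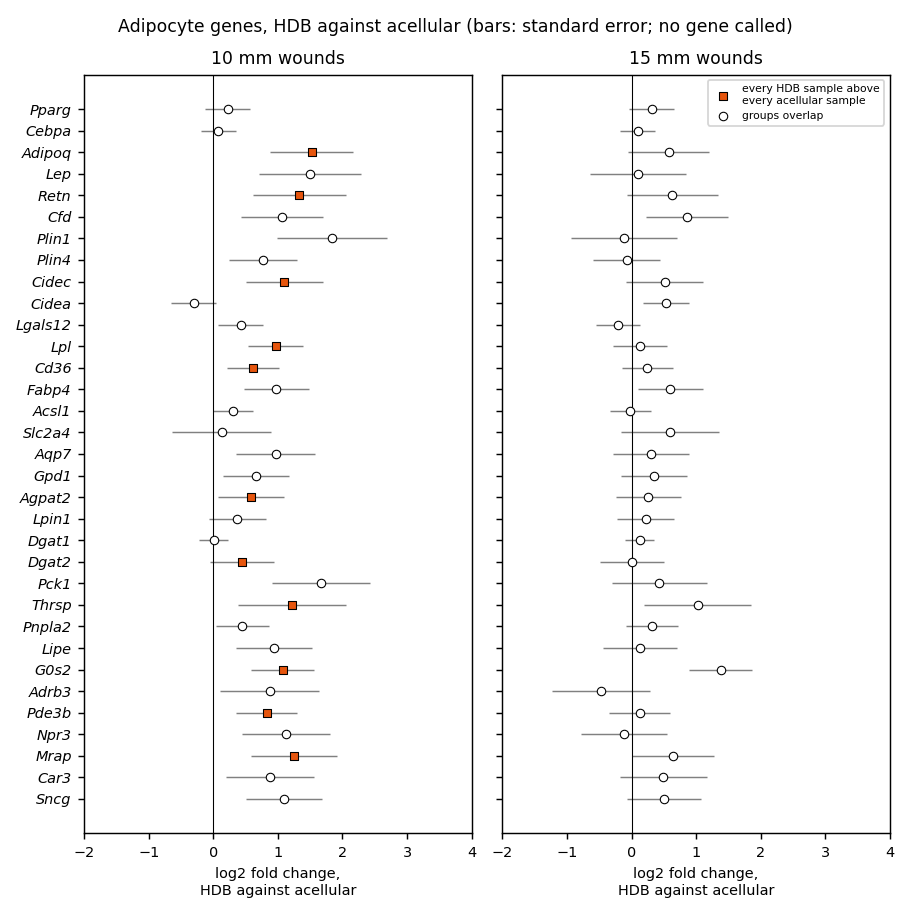
Log2 fold change of the 33 adipocyte genes (rows) of HDB over acellular at each wound size (panels), with the standard error as a bar. Squares mark the 11 genes at 10 mm whose 3 HDB samples were all above the 3 acellular samples. No gene was called at either size.

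At 15 mm edgeR called 0 of 33 members between HDB and acellular, against 2.93% of all genes (2.35% lower and 0.579% higher). At an unadjusted p under 0.05 there was 1 member, against 15.7% of all genes lower and 7.48% higher, and DESeq2 called 1 (G0s2), against 9.16% and 3.27%. The groups overlapped in all 33 members, whereas HDB samples were all above in 8.55% of all genes and all below in 11.7%. The median log2 fold change was 0.30, with 27 members above 0, and it ranged from -0.14 to 0.78 as single samples were left out. The median of all tested genes was 0.0041. Over both sizes edgeR called 0 members (0% of all genes), and 3 had an unadjusted p under 0.05, against 10.5% of all genes lower and 5.32% higher. All 33 log2 fold changes were above 0 with a median of 0.51 (0.34 without HDB 15 mm replicate 2 and 0.80 without acellular 15 mm replicate 3). All tested genes had a median of -0.0081 there. Members rose or fell together within single samples, so the 33 directions are not separate observations. Of 33 exact permutation tests over both sizes, with 400 arrangements and a smallest possible p of 0.005, 1 gave an unadjusted p under 0.05, against 8.77% of all genes. That was G0s2, at a difference of 1.14 on the log2 scale (two-sided p = 0.025, exact permutation test). G0s2, which inhibits the lipase encoded by Pnpla2, stood at 4.85, 9.43 and 11.2 CPM in acellular 10 mm, 19.9, 18.9 and 14.8 in HDB 10 mm, 9.24, 17.7 and 19.4 in acellular 15 mm, 41.8, 66.2 and 12.9 in HDB 15 mm, and 28.5, 41.1 and 34.5 in normal skin. HDB was above acellular in every sample at 10 mm, while at 15 mm HDB replicate 3 lay among the acellular samples. In edgeR the log2 fold change of G0s2 across the 2 sizes was 1.23 ± 0.34 (edgeR adjusted p = 0.261), and DESeq2, which called 1.15% of all genes lower and 0.359% higher, gave an adjusted p of 0.0341, the lowest of a range up to 0.495 over the alternatives. The number of members with a permutation p under 0.05 was 11 when HDB 15 mm replicate 3 was left out (4.91% of all genes), 5 when replicate 3 of acellular 15 mm was (17.4%), and 0 when its replicate 1 (5.52%) or 2 (7.97%) or HDB 15 mm replicate 2 (3.47%) was. For the difference in the HDB effect between sizes edgeR called 0 members (0% of all genes) with 0 at an unadjusted p under 0.05 (8.20% of all genes lower and 5.22% higher), and DESeq2 called 0 (3.26% and 1.56%).

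Endothelial and macrophage markers stood above 0 with the members in these comparisons: 10 of 10 endothelial and 10 of 10 macrophage genes had a log2 fold change above 0 over both sizes, with medians of 0.56 and 0.65, 0 of them called and none at 0 in any sample. The endothelial sum was 133 to 264 CPM in acellular 10 mm and 190 to 327 in HDB 10 mm, and 194 to 356 in acellular 15 mm and 245 to 540 in HDB 15 mm. The macrophage sum was 209 to 1088 and 377 to 770 CPM at 10 mm and 154 to 817 and 509 to 1001 CPM at 15 mm, acellular first. Skeletal muscle markers had 10 of 10 log2 fold changes above 0 over both sizes (median 0.57) and at 15 mm (median 1.29), and 3 of 10 at 10 mm (median -0.07), with 0 called. The part of these lists in the members' values was not tested.

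The wound sizes were compared within each treatment after the data were seen. Members were mostly higher in acellular 15 mm than in acellular 10 mm: 28 of 33 log2 fold changes were above 0, with a median of 1.27 (0.68 without acellular 15 mm replicate 3). EdgeR called 0 members and 0% of all genes, 19 members had an unadjusted p under 0.05 (6.96% of all genes lower and 10.5% higher), and DESeq2 called 13, of which 12 were higher at 15 mm and Cidea lower, against 3.09% of all genes higher and 2.08% lower in DESeq2. All 3 samples of acellular 15 mm were above all of acellular 10 mm in 18 members (8.39% of all genes) and below in 1, Cidea (8.09%). Lep had a log2 fold change of 3.02 ± 0.81 (edgeR adjusted p = 0.158) and Plin1 of 2.95 ± 0.89 (edgeR adjusted p = 0.169). Without acellular 15 mm replicate 3 these were 2.38 and 1.80, and edgeR called 2 members. In the same comparison 10 of 10 endothelial markers (median 0.56) and 8 of 10 macrophage markers (median 0.35) had a log2 fold change above 0, and 8 of 8 sebaceous gland markers (median -0.94) and 10 of 10 muscle markers (median -1.14) one below 0. None of these was called, 6 of the sebaceous genes had an unadjusted p under 0.05, and the part of these lists was not tested. Between HDB 15 mm and HDB 10 mm edgeR called 0 members (0% of all genes), 5 had an unadjusted p under 0.05 (6.67% of all genes lower and 5.67% higher) and DESeq2 called 0 (1.64% and 0.885%). The median was 0.73, which became 0.19 when HDB 15 mm replicate 2 was left out and 1.12 when its replicate 3 was. In 1 member, Dgat1, the 15 mm samples were all below the 10 mm samples (11.8% of all genes).

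Other genes of the same pathways were described from 8 lists over the mean of the 4 wounds. Of 59 genes tested, 24 were lower than normal skin and 5 higher, against 16.7% and 14.2% of all genes. Without normal replicate 3 the 29 called genes became 13. In lipogenesis 1 of 9 rose, Elovl6 (fatty acid elongase, 1.15 ± 0.24), and 1 fell, Mlxipl (the carbohydrate response factor ChREBP, -1.68 ± 0.50), while the most abundant, Scd1 (stearoyl-CoA desaturase), had a log2 fold change of 0.47 ± 0.34 and did not pass. Of 8 adipogenic regulators 5 fell, the furthest being the coactivator Ppargc1a at -2.09 ± 0.48, and the most abundant, the receptor Rxra, was at 0.08 ± 0.12 and did not pass. Of 9 other adipokines and adipocyte genes 5 fell, and Nnat (neuronatin) fell the most, by 3.03 ± 0.46, while the most abundant, Nampt, an enzyme of NAD synthesis, fell by 0.38 ± 0.11. Of 7 other lipolysis genes 2 fell and 1 rose: Gpihbp1, which holds lipoprotein lipase on capillary endothelium, fell by 1.91 ± 0.25, and Angptl4, an inhibitor of that lipase, rose by 0.80 ± 0.27. The most abundant of them, the monoglyceride lipase Mgll, was at 0.33 ± 0.22 and did not pass. Of 6 other droplet genes 1 fell (Fitm1, -2.08 ± 0.73), and the most abundant, the perilipin Plin2, was at 0.56 ± 0.22 and did not pass. Of 5 insulin signalling genes 3 fell, Tbc1d4 the furthest at -0.66 ± 0.23, and Akt2, the most abundant, by 0.47 ± 0.12. Within each of the 5 groups the samples of Fitm1 and Ppargc1a ranked as the muscle sums did, and the part of muscle in their values was not tested.

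The thermogenic list split, with 2 of 7 higher and 2 lower. Dio2, the deiodinase that activates thyroid hormone, rose by 1.55 ± 0.36, and Elovl3, an elongase that sebaceous glands also express, rose by 1.26 ± 0.26. Cpt1b and Cox8b, which skeletal muscle also expresses, fell by 2.23 ± 0.69 and 1.99 ± 0.56. Within each of the 5 groups the samples of Cpt1b ranked as the muscle sums did. Those of Cox8b did so except in acellular 10 mm, and the part of muscle in both was not tested. Of 8 adipocyte progenitor genes 5 fell, the furthest being Pi16, a marker of interstitial progenitors, at -2.63 ± 0.38, and 1 rose, Cd24a, at 0.96 ± 0.29. Adjusted p-values of the named genes in these lists came from edgeR's test over all genes and lay between 0.00108 (Gpihbp1) and 0.0476 (Fitm1) for those that passed. Leaving out normal replicate 3 lost the calls of Akt2 (-0.44), Dio2 (1.33) and Cox8b (-1.99), leaving out normal replicate 1 those of Ppargc1a (-1.62) and Cox8b (-1.82), and leaving out any one normal sample those of Mlxipl, Cd24a, Cpt1b and Nampt. Those of Fitm1, Tbc1d4 and Angptl4 were also lost with the replicate number as a blocking term (-2.19, -0.67 and 0.78) and without any of several single samples, normal replicates 1 and 3 among them. Plin2 was called without acellular 15 mm replicate 1 (0.62) and by DESeq2 (0.54).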

How the data were processed

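The authors deposited 1 table of estimated counts per gene, not normalized, for 15 skin samples. The deposited counts have decimals and were rounded to whole numbers. The submitters' processing notes name HISAT2 2.0.4, Bowtie2 2.2.5, RSEM 1.2.12 and build GRCm38.p6, with no roles or order. All genes were fitted together with edgeR 4.0.16 (R 4.3.3), with filterByExpr, TMM factors and 1 mean for each of the 5 groups, and tested by quasi-likelihood with p-values adjusted by the Benjamini-Hochberg method (threshold 0.05). The F value's square root, divided into the log2 fold change, gave the standard error. Levels are CPM after TMM. For log2 CPM the prior count was 2. The limits given for counts of 0 cover counting error only. Alternatives were DESeq2 1.42.0, a mean of at least 50 counts or no filter, a block for the replicate number, a fit of the compared groups alone, and leaving out each sample. Removal of a transcript length trend, and the comparisons between wound sizes, were added after the data were seen. Permutation tests were exact and two-sided on log2 CPM.

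The members and lists were chosen with earlier results of these data known. All 34 members were described by role. Sample values were given for the 2 most abundant members of each role and for those whose call in the mean of the wounds differed from most of the role. Lep, Retn, Plin1, Slc2a4, Acsl1, Lgals12, G0s2, Thrsp, Pck1, Dgat1, Agpat2, Cd36, Adrb3 and Cox8b were added after their values were seen. Other lists are named by their most abundant member and the called members furthest from 0. Deviations of same-number samples from their group means had correlations of 0.397, 0.167 and 0.183 between acellular and HDB 15 mm. Every other pair of groups had a lower value among its correlations, and what a replicate number marks is not stated. On simulated counts for acellular 10 mm against normal skin, with 200 changed genes, the test recovered 11.5% at a log2 change of 1 (15285 genes), 74% at 2 (15292 genes) and 83% at 3 (15267 genes), with 0, 7 and 7 false calls.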

Additional observations from a re-analysis of the deposited data

How the results depend on the processing

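Members called against normal skin in acellular 10 mm, 26, became 29 with DESeq2, 23 with no filter and 19 when the replicate number was a block, and 6 to 27 as single samples were left out. Of all genes the block called 8.37% lower and 7.67% higher there, against 10.6% and 9.77% in the main fit. In acellular 15 mm, 2 became 6 with DESeq2, 1 with only the groups compared, 0 with the replicate block and 1 with the block and the length trend removed, and 0 to 7 as samples were left out. In HDB 10 mm, 2 became 13 with DESeq2, 11 with only the groups compared, 0 with the block, and 0 to 10 as samples were left out. With the block 3.79% of all genes were lower there and 3.93% higher, against 6.23% and 6.10% in the main fit. In HDB 15 mm, 0 became 1 with DESeq2, 1 with only the groups compared, and 0 to 1 as samples were left out. Only the groups compared gave 11.3% of all genes lower and 11.6% higher there, against 2.51% and 2.67% in the main fit. Over all wounds, 16 became 13 with the block, 22 with DESeq2, and 3 to 25 as samples were left out. The block called 15.1% of all genes lower and 12.3% higher there.

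DESeq2 called 16.1% of all genes lower and 12.6% higher in acellular 10 mm, 16.4% and 19.9% in acellular 15 mm, and 19.0% and 17.0% over all wounds. Between HDB and acellular, DESeq2 called 1 member at 15 mm and 1 over both sizes, and all other alternatives gave 0. At 15 mm the block called 0 members, as the main fit did, against 0.904% of all genes lower and 0.260% higher. The labels do not say what a replicate number marks. Between acellular 15 mm and 10 mm, 0 became 13 with DESeq2 and 0 to 2 as samples were left out. Listed pathway genes called, 29, ranged from 13 to 32, and members with a permutation p under 0.05 from 0 to 11. Without normal replicate 2, the log2 fold change turned positive for Cebpa (0.13 in acellular 10 mm, lowest value as samples were left out -0.22, and 0.12 over all wounds, lowest -0.22) and, over all wounds, for Agpat2 (0.050, lowest -0.81), Dgat1 (0.0052, lowest -0.17) and Adrb3 (0.093, lowest -0.83), and none of these was called. The cause of these changes was not tested. In simulated counts for acellular 10 mm against normal skin, with 200 changed genes, 11.5% of changes of 1 on the log2 scale were recovered. The data held more called genes (3125 of 15369), so this recovery cannot be carried over to that comparison.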
